A study of Mus musculus with 60 samples.

Results

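The sequence described here is what very long lamina domains of the mouse hippocampus have in common between healthy and Huntington's disease model mice. It was chosen from the lamin B1 ChIP-seq domain lists of the 2 genotypes, 1 list each: an autosomal window of 37 kb was a member if it lay whole within a wild-type (WT) domain of 15 Mb or longer and also within an R6/1 domain. That gave 8596 of 66831 autosomal windows (12.9%), or 318.1 Mb of sequenced bases (mouse build NCBIM37), in 17 WT domains. Domain length and presence in both lists therefore chose the members and are described without a test. The rule for a window uses no gene content and no RNA level, but it was set with earlier results of these data known.

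Hippocampal tissue came from 30-week-old mice of a mixed background (50% CBA and 50% C57BL/6), either WT or R6/1. R6/1 animals bear, beside their own huntingtin genes, a transgene in which the human huntingtin promoter drives the start of human huntingtin with a lengthened CAG repeat. For each genotype lamin B1 ChIP was run on 3 pools of 5 mice, and the authors' lists give 1 set of domains per genotype, so domain bounds carry no replicate spread. RNA-seq used 9 independent biological replicates per genotype, with between 12299434 and 16736544 reads on genes per library, in RPKM (reads per kilobase of gene, scaled for depth).

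Lamin B1 is a protein of the nuclear lamina, the meshwork under the inner nuclear membrane. Chromatin that contacts it forms lamina-associated domains, which are known as AT-rich, gene-poor and mostly silent stretches of the late-replicating genome. Many tissue-restricted gene clusters lie in such domains, among them odorant and pheromone receptors, and so do many long neuronal genes. A domain call joins neighbouring windows and does not resolve gaps inside a domain, so whether an expressed gene within one touches the lamina was not measured.

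The matched promoters of protein-coding members had a median of 12 CG dinucleotides, with quartiles of 3 and 23. The 5 shown here, from RefSeq, come from the highest genes and from a silent family. Each runs from 250 bases before to 50 after the start, 5′ to 3′ on the gene's strand. Each was found letter for letter in NCBIM37. Capitals mark CG dinucleotides. The promoters of App (chr16:85173903-85174202, minus strand) and Ndufa4 (chr6:11857401-11857700, minus strand) belong to the members with the highest mean RPKM. Those of Vmn1r4 (chr6:56906257-56906556), Vmn1r5 (chr6:56920079-56920378) and Vmn1r6 (chr6:56952099-56952398), all on the plus strand, belong to the first genes of the most numerous sensory receptor family here. The RefSeq start of Vmn1r5 lies upstream of its GENCODE start at 56935289.
App: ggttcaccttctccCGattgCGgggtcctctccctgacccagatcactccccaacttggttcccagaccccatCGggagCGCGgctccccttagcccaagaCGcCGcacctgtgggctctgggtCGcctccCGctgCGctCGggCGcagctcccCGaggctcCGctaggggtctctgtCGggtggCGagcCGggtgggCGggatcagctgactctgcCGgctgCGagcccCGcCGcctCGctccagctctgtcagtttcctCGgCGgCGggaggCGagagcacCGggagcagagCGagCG
Ndufa4: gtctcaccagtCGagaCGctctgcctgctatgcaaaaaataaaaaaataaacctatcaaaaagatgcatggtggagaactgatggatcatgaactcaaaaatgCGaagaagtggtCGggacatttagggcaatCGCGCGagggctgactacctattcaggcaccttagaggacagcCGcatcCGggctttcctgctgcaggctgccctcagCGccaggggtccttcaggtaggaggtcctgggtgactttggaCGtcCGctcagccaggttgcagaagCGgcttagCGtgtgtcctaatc
Vmn1r4: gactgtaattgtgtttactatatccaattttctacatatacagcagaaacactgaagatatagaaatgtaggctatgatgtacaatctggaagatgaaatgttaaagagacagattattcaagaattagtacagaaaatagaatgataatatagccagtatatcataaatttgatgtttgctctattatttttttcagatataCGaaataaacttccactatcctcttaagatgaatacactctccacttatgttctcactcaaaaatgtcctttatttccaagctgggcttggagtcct
Vmn1r5: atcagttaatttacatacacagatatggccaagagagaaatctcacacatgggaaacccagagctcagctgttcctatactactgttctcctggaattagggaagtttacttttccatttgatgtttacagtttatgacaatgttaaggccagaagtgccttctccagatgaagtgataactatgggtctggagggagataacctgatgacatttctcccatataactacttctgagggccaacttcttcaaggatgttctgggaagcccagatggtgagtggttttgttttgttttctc
Vmn1r6: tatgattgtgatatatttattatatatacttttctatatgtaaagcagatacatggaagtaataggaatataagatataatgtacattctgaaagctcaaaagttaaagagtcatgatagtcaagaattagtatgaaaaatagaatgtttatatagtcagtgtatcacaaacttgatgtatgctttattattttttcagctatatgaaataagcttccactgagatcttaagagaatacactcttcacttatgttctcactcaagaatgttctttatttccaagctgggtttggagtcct

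The App promoter held 30 CG dinucleotides and that of Ndufa4 held 14, whereas Vmn1r4 held 1 and Vmn1r5 and Vmn1r6 held 0. Across the members, CG counts differed with RNA level. Among protein-coding genes with a mean of 10 RPKM or more, 134 of 187 had a matched promoter, with a median of 21 CG dinucleotides, and 90.3% held 10 or more. Among those from 0.5 to under 10 RPKM the median was 18 (163 promoters), and among those under 0.5 RPKM it was 2 (199 promoters), of which 9.55% held 10 or more. For comparison, 61.02% of all 15304 matched autosomal promoters held 10 or more. Expressed genes outside all domains had a median of 23, and 90.3% of them held 10 or more, the same share as in the long domains. Protein-coding genes under 0.5 RPKM had a median of 1 in shorter shared domains. Outside domains such genes had a median of 4, and 25.2% of them held 10 or more. Of the 36 Vmn1r genes in the long domains 31 had a matched promoter, with a median of 0 and a highest value of 2. CG content was counted in the reference sequence and says nothing of methylation, which was not measured.

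The 17 domains lay on 13 autosomes and ran from 16.28 to 37.9 Mb. The longest covered chromosome 14 from 80290001 to 118178000, and 99.4% of its windows were also in an R6/1 domain. The shortest inside the limit were 2 domains of 16.28 Mb, and the WT domains just under it measured 14.06 and 13.95 Mb. Of all windows in the 17 WT domains, 85.9% (8596 of 10012) were kept in R6/1, against 82.3% (12784 of 15528) of the windows in shorter WT domains. The kept share ranged from 57.0% in the chromosome 10 domain to 100% in 2 domains, those on chromosome 6 from 56906001 to 81696000 and on chromosome 16 from 65305001 to 89762000. Kept windows formed a single R6/1 piece in 10 of the 17 domains. Each domain held at least 4 genes with a mean of 10 RPKM or more, up to 25 in the chromosome 6 domain that was kept whole.

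**Figure D1:**
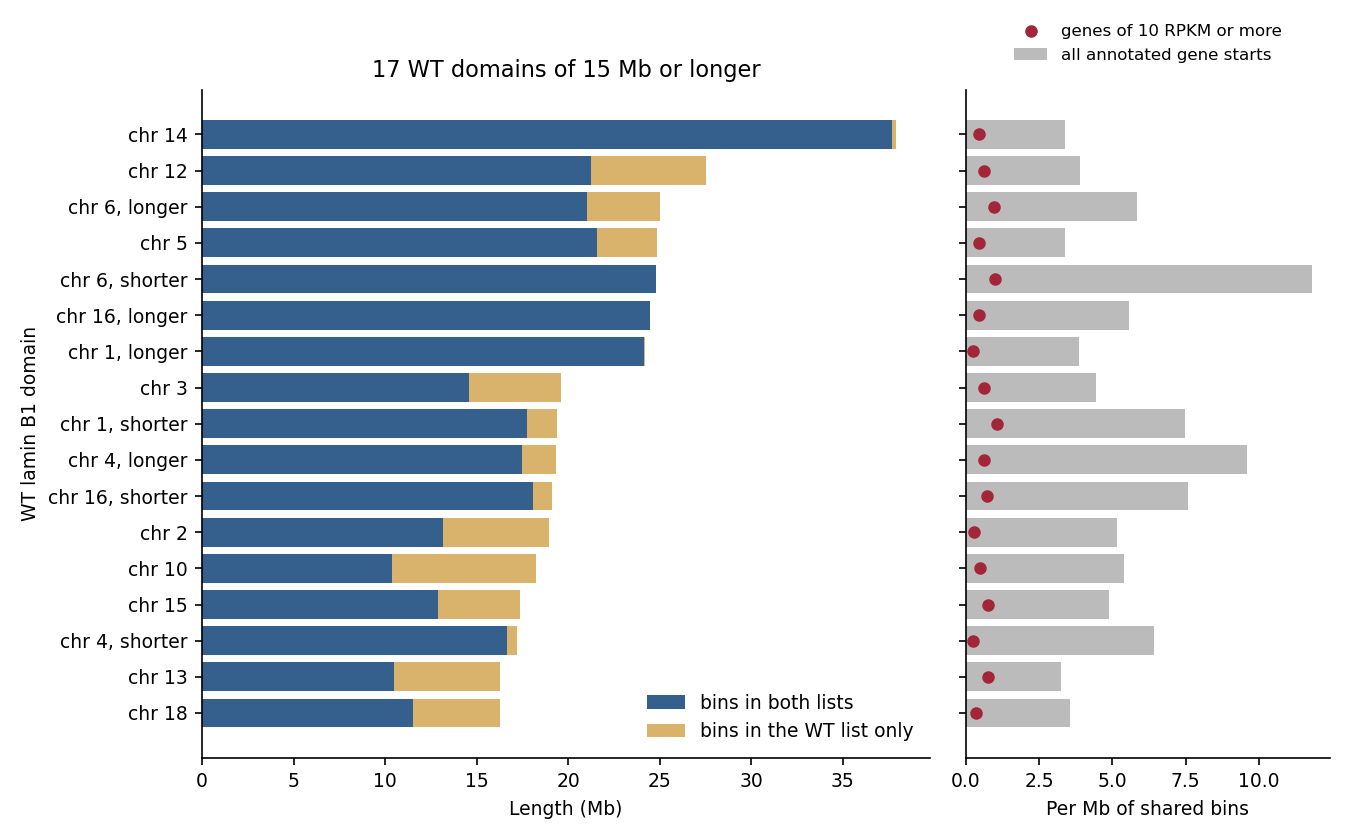
Left, length in Mb of the 17 WT lamin B1 domains of 15 Mb or longer, split into windows found in both lists and windows found in the WT list alone; right, annotated gene starts (bars) and genes with a mean of 10 RPKM or more (points) per Mb of the shared windows. The shared share runs from 57.0% to 100%, and each domain holds expressed genes at 0.240 to 1.07 per Mb.

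Gene starts were sparse in the long domains, and sparser than in shorter shared domains. The members held 1800 annotated gene starts (GENCODE), or 5.66 per Mb (exact Poisson 95% interval 5.40 to 5.93). Shared windows of shorter WT domains held 8.90 per Mb (8.64 to 9.18), and windows outside every domain 18.8 per Mb (18.6 to 19.1). With sensory receptor genes left out, the long domains held 5.42 starts per Mb and the shorter shared domains 6.43, so most of that gap lies in these genes, of which the shorter domains hold many more. For protein-coding genes the densities were 2.53, 5.04 and 12.1 per Mb. No gene started in 83.2% of the member windows. The longest run of sequence without a protein-coding start measured 4.96 Mb (chromosome 1, 101676001 to 106634000), and 4 of the 17 domains had such a run of over 4 Mb. The intervals here cover counting error alone, and neighbouring genes of one cluster are not independent.

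Density differed between the 17 domains more than those intervals. It was lowest in the chromosome 13 domain, at 3.24 starts per Mb, and highest in the chromosome 6 domain from 56906001 to 81696000, at 11.8 per Mb. The 293 starts of that chromosome 6 domain include 106 segments of the immunoglobulin kappa locus and 36 sensory receptor genes. Without that domain the long domains together held 5.14 starts per Mb. The GC content of the members was 38.2%, close to the 38.4% of shorter shared domains and below the 44.1% outside domains. Across the 17 domains it stayed between 37.6% and 39.8%.

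Protein-coding genes made up 44.7% of the gene starts in the members (805 of 1800), against 64.1% outside domains. Pseudogenes followed with 296 starts (16.4% against 10.1% outside domains), then 166 snoRNA, 148 snRNA, 99 immunoglobulin V segments, 92 processed transcripts, 83 miRNA and 52 lincRNA starts. Small nucleolar and small nuclear RNA loci together took a larger share of starts here (9.22% and 8.22%) than outside domains (3.79% and 3.21%). These classes come from the annotation. The messenger RNA libraries hold little information on short RNAs, and none of the snoRNA or snRNA loci was in the expression table.

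Of the 1800 gene starts 774 were in the expression table and 1026 were not. Of the 774, 135 were at 0 in all 18 libraries, 193 were above 0 and below a mean of 0.5 RPKM, and 446 (57.6%) reached 0.5 RPKM, the level required for testing. A mean of 10 RPKM or more, called expressed here, was reached by 189 genes (24.4%, Wilson 95% interval 21.5% to 27.6%). In shorter shared domains 8.47% of the table's genes did so, and outside domains 32.5%. Per Mb, the long domains held 0.594 expressed genes (exact Poisson interval 0.513 to 0.685) and the shorter shared domains 0.400 (0.345 to 0.461). With all genes counted, the long domains had fewer gene starts per Mb than shorter domains and more expressed genes per Mb. Both were far below the 3.90 per Mb outside domains.

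Sensory receptor genes made up part of that contrast. Without them, 63.5% of the table's genes in long domains reached 0.5 RPKM, against 43.8% in shorter shared domains and 70.4% outside domains. The shares at 10 RPKM or more were then 26.9%, 15.3% and 33.1%. Within the same 17 WT domains, windows that were not in an R6/1 domain held 9.07 gene starts and 1.81 expressed genes per Mb (1.47 to 2.22), with a GC content of 40.6%.

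**Figure D2:**
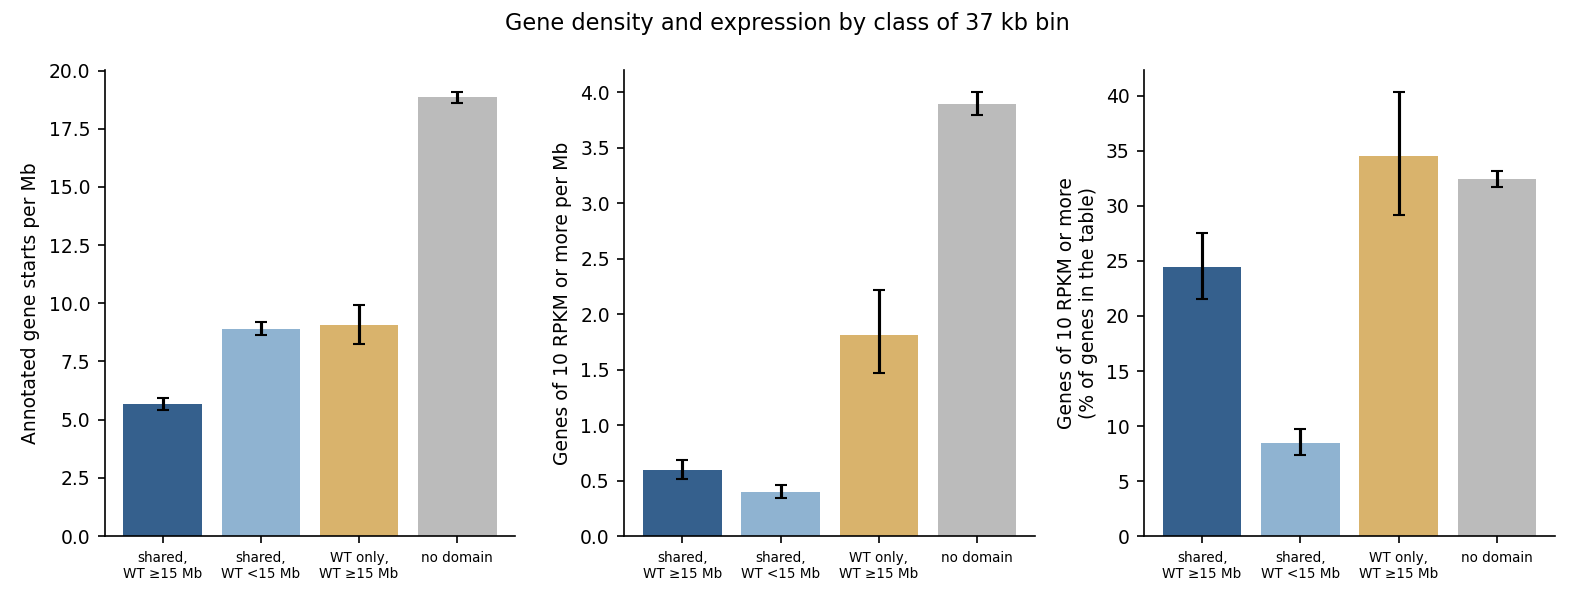
Gene starts per Mb, genes with a mean of 10 RPKM or more per Mb, and the percentage of the table's genes at that level, for shared windows of long and shorter WT domains, WT-only windows of long domains and windows outside domains; bars are values and error bars 95% intervals for counting error. Shared long-domain sequence has the fewest starts per Mb (5.66) but more expressed genes per Mb (0.594) than shared sequence of shorter domains (0.400).

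Among the clustered gene families of the long domains, pheromone receptors and immunoglobulin segments had larger shares of their genes here than odorant receptors. Of the 1243 autosomal Olfr genes, which encode odorant receptors of the nose, 27 (2.17%) started in the members and 929 (74.7%) in shorter shared domains. Of 263 Vmn1r genes, encoding a class of vomeronasal pheromone receptors, 36 (13.7%) were members, all on chromosome 6 between 56906460 and 66755326. A larger share of Vmn1r, 95 genes (36.1%), started in shorter shared domains. Of 179 Vmn2r genes, the second class of these receptors, 12 (6.70%) were members and 99 (55.3%) started in shorter shared domains. For scale, 5.19% of all autosomal gene starts were members. Of the 72 sensory receptor genes that were in the table none reached 0.5 RPKM, and 53 were at 0 in all 18 libraries. The highest was Vmn2r1, with a lowest value of 0, a median of 0.164 and a highest value of 0.318 RPKM in WT, and 0.0444, 0.169 and 0.241 in R6/1. All 72 genes together had 183 reads over the 18 libraries, and no gene had over 14 in a library.

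All 106 annotated segments of the immunoglobulin kappa locus (Igk), from which B cells assemble antibody light chains, started in member windows of chromosome 6, between 67505630 and 70676751, a span of 3.17 Mb. None of them was in the expression table, so their RNA level is not known here. Without the locus the members held 5.33 gene starts per Mb. Serpins, a family of protease inhibitors, had 14 of 67 autosomal genes in the members (20.9%). Of these 2 were tested: Serpini1, which encodes the neuronal inhibitor neuroserpin, at 77.3 ± 11.9 RPKM (SD, n = 9) in WT and 74.2 ± 2.80 (n = 9) in R6/1 (limma adjusted p = 0.617), and Serpinb8, at 1.13 ± 0.261 and 0.462 ± 0.103 RPKM, which was lower in R6/1 (limma adjusted p = 3.57e-06) with no overlap between the genotypes. Clec14a was the 1 C-type lectin here, at 1.34 RPKM in WT and 1.36 in R6/1, and all 3 beta-defensins stayed below 0.5 RPKM. No gene with a Zfp name (of 393) and no cytochrome P450 gene (of 106) started in the members.

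Cell adhesion families of neurons had 19 of 106 genes in this sequence (17.9%, over 14 lists) and 28 (26.4%) in shorter shared domains, so their place in shared lamina domains is not particular to the long ones. All 4 autosomal Slitrk genes, which encode leucine-rich transmembrane proteins that organise synapses, lay in long shared domains: 3 on chromosome 14 in the longest domain and Slitrk3 on chromosome 3. Of the non-clustered protocadherins 4 of 11 were members, of the Robo axon guidance receptors and their Slit ligands 3 of 7, of the synaptic Lrrtm proteins 2 of 4, of the contactin-associated proteins 2 of 7 and of the cadherins 3 of 23. All 19 reached 0.5 RPKM and 9 reached 10 RPKM. Contactins, neurexins and neuroligins, teneurins, latrophilins and semaphorins had none here, while 4 of 6 contactins lay in shorter shared domains. Receptor and channel families of synapses had 10 of 213 genes here (4.69%), of which 7 were potassium channel subunits (of 96).

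**Figure D3:**
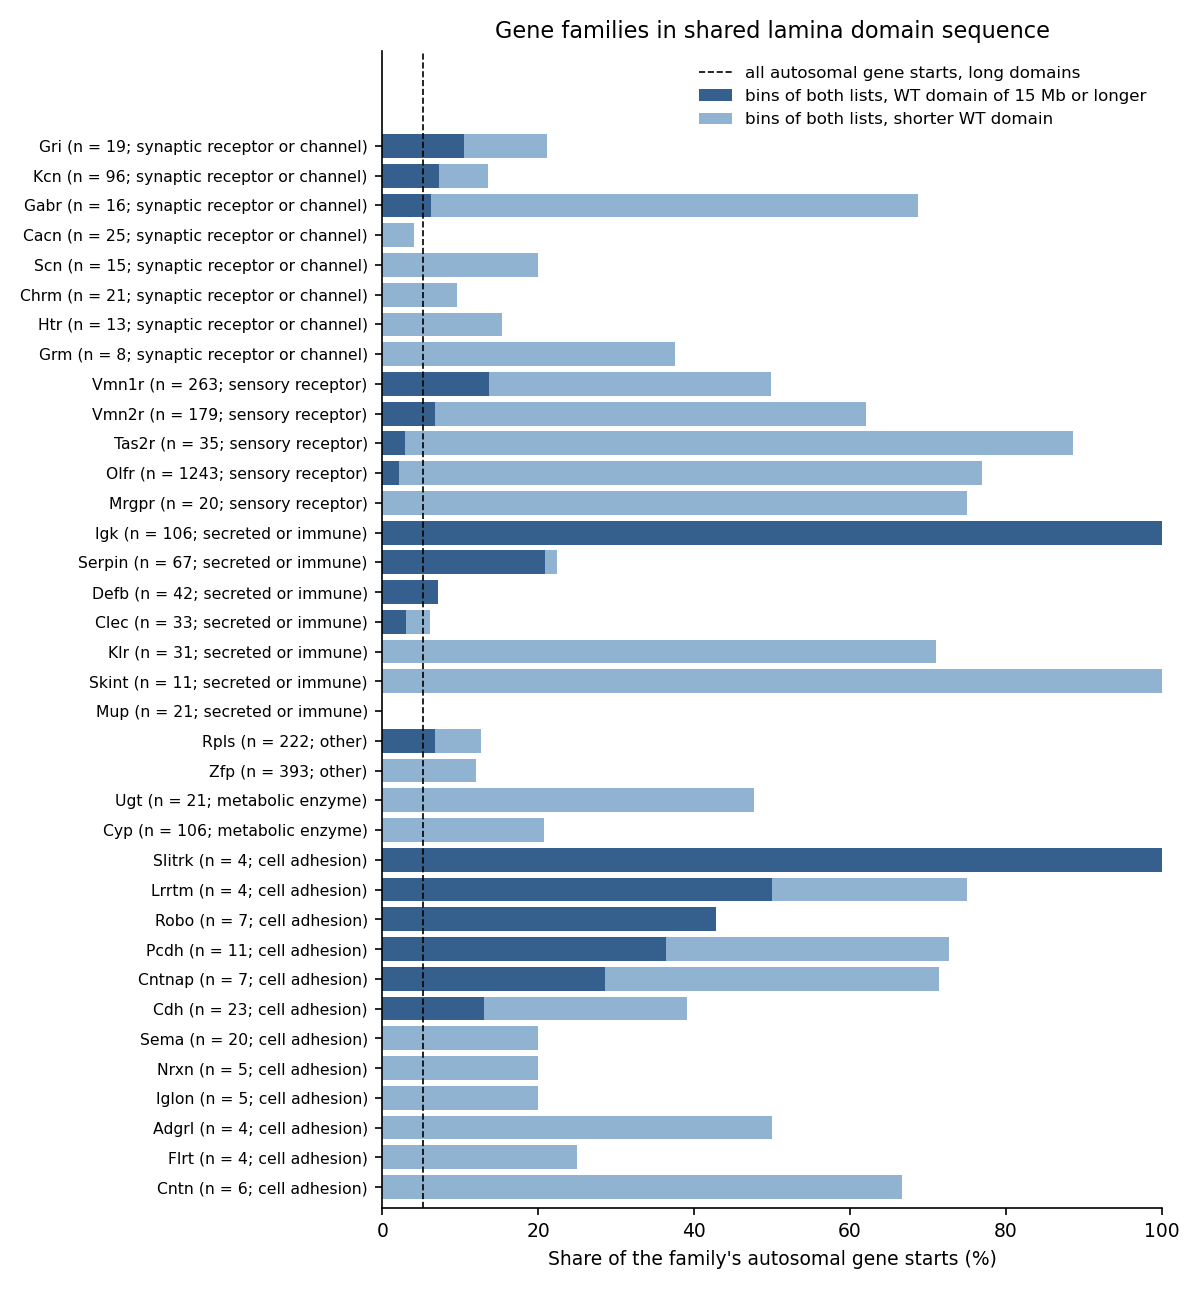
Share of each gene family's autosomal starts that lies in shared windows of WT domains of 15 Mb or longer (dark) and of shorter WT domains (light), in percent, for families of 4 or more genes; the dashed line marks the 5.19% of all autosomal starts in the long domains. Igk and Slitrk lie wholly in the long domains, and 74.7% of Olfr genes lie in the shorter ones.

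Expressed genes were scattered through the long domains, and in the shared windows they were fewer per Mb near the borders of the WT domain. Within 2 Mb of a border there were 15 expressed genes in 50.0 Mb (0.2999 per Mb, exact Poisson interval 0.168 to 0.495), and further inside 174 in 268.0 Mb (0.649 per Mb, 0.556 to 0.753). Windows near a border that were lost in R6/1 are not in this count. Borders were taken as listed, and some may not be edges of lamina contact. On chromosome 16, 1 long domain ended at 65231000 and the next began at 65305001, so these neighbours are barely apart. On chromosomes 1 and 6 a long domain began at 3034001, near the chromosome start. With all windows of the same WT domains included, the values were 0.564 (0.401 to 0.771) and 0.813 (0.715 to 0.922) per Mb, and these intervals overlap. In shared windows alone, 13 of the 16 domains with such windows within 2 Mb of a border had a lower density there. These counts are small, from 0 to 5 expressed genes per domain. In 9 of the 17 domains there was none, which includes the chromosome 13 domain without such windows. All gene starts together differed less, with 5.00 per Mb near the border and 5.78 inside.

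Linking expressed genes whose starts lay no more than 250 kb apart gave 126 groups, of which 87 held a single gene. The largest held 12 expressed genes among 31 gene starts in 1.22 Mb of chromosome 6 (71373001 to 72594000), where the GC content was 45.2%: Rmnd5a, Rnf103, Chmp3, Reep1, Immt, Ptcd3, St3gal5, Usp39, Rnf181, Mat2a, Elmod3 and Tgoln1. Of these 12, 5 were higher and 2 lower in R6/1, beside 31.3% and 26.2% of all genes at 10 RPKM or more. Expressed protein-coding members had a median annotated length of 40.2 kb, against 24.3 kb for expressed genes outside domains and 32.8 kb in shorter shared domains. Genes of over 200 kb made up 16.6% of them (31 of 187), against 4.92% outside domains and 18.3% in shorter shared domains. The 184 windows with the start of an expressed gene had a median GC content of 40.6%, those with other gene starts 39.0% and those with no gene start 37.8%.

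The most abundant transcripts of the long domains came from App and from genes of general cell function. App, which encodes the amyloid precursor protein, ranked first: in WT its lowest, median and highest values were 496, 575 and 620 RPKM and in R6/1 521, 548 and 588. The 2 genotypes overlapped over most of that range, and the difference did not pass the test (log2 fold change -0.03 ± 0.04 SE, limma adjusted p = 0.564). Ndufa4, a subunit of the respiratory chain, measured 304, 333 and 372 RPKM in WT and 322, 348 and 373 in R6/1 (log2 fold change 0.06 ± 0.04, limma adjusted p = 0.281). Here too the genotypes covered the same range. Rpl7 and Rpl24 encode proteins of the large ribosomal subunit. Rpl7 measured 212, 223 and 244 RPKM in WT and 231, 239 and 285 in R6/1 and was higher in R6/1 (0.15 ± 0.04, limma adjusted p = 0.00432); it has near-identical copies elsewhere in the genome, so its counts are uncertain. Rpl24 measured 171, 180 and 214 RPKM in WT and 181, 188 and 209 in R6/1 and did not pass (limma adjusted p = 0.276). The scaling of the libraries changes the calls for 3 of these: with quantile normalization App, Ndufa4 and Rpl24 were all called higher, App with its sign turned (0.15, limma adjusted p = 8.25e-05), and with scaling by total reads Ndufa4 and Rpl24 were (0.13 each).

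Nap1l5 is an imprinted gene inside Herc3 on the opposite strand. It measured 128, 138 and 176 RPKM in WT and 173, 184 and 193 in R6/1 (0.35 ± 0.06, limma adjusted p = 3.79e-05). The genotypes overlapped through the highest WT library. Qdpr (chromosome 5, 45825271 to 45841474) encodes the enzyme that regenerates the cofactor tetrahydrobiopterin. It measured 120, 133 and 151 RPKM in WT and 66.6, 87.2 and 126 in R6/1 (-0.66 ± 0.10, limma adjusted p = 1.20e-05). Most R6/1 libraries were below the WT range for this gene, and the highest lay within it. Capza2, which caps actin filaments, was lower in R6/1 (141 ± 13.5 against 115 ± 7.52 RPKM, SD, n = 9 each; limma adjusted p = 0.000164). Pcnp, a nuclear protein gene, was higher (71.2 ± 3.82 against 85.9 ± 5.31 RPKM; limma adjusted p = 1.24e-05) with no overlap; its end overlaps Rpl24 on the other strand, and whether the authors' counting used strand is not given in the sources used here. Cox7c (124.8 RPKM over all libraries) and Atp5j (103.5 RPKM), both of mitochondrial energy production, did not pass (limma adjusted p = 0.0691 and 0.181). Without R6/1 replicate 2, Cox7c was called lower (limma adjusted p = 0.0455).

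Enpp2 (chromosome 15, 54670453 to 54751701), which encodes the lysophospholipase autotaxin, was the least even of the 12 most abundant protein-coding members. It measured 54.8, 80.8 and 261 RPKM in WT and 45.2, 124 and 323 in R6/1, and the genotypes did not separate (log2 fold change -0.02 ± 0.38, limma adjusted p = 0.973). The summed level of 6 choroid plexus markers ran from 25.6 to 1075 RPKM in WT and from 38.8 to 1743 in R6/1, with none of the 6 at 0 throughout. The library with the highest sum in each genotype was also the one with the highest Enpp2. The part of choroid plexus tissue in the spread of Enpp2 was not tested.

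**Figure D4:**
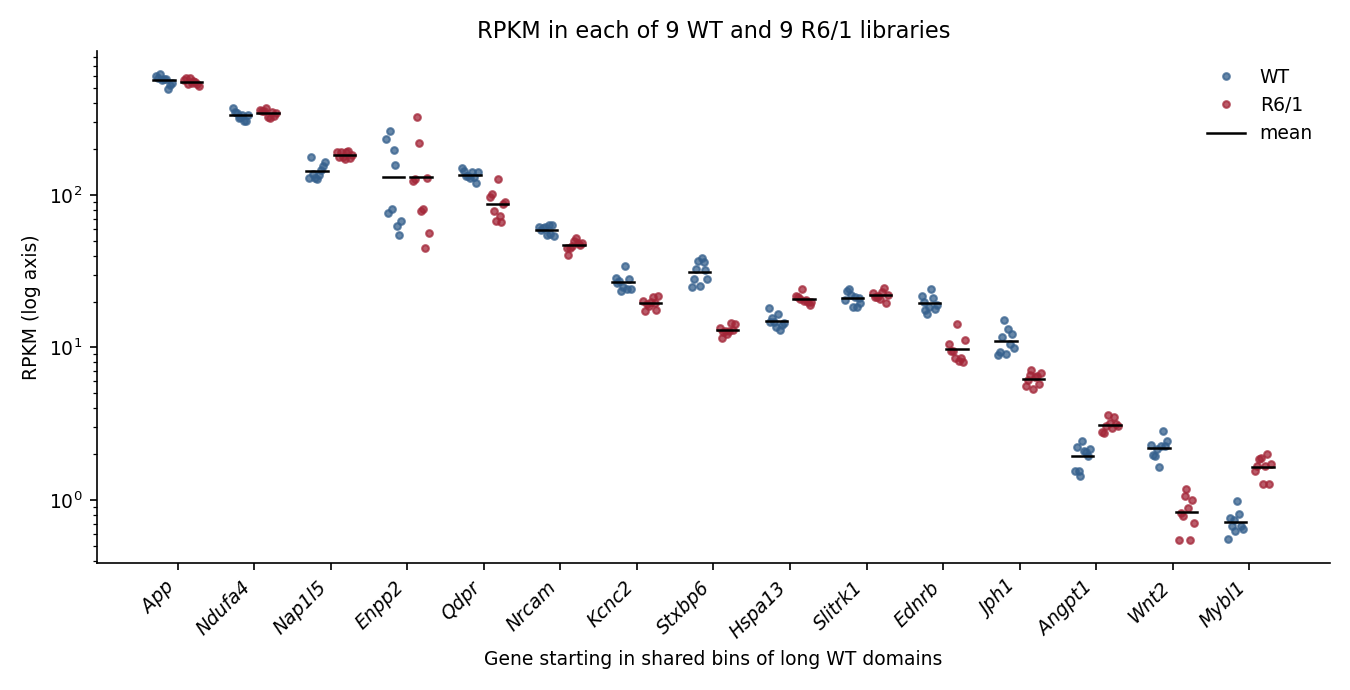
RPKM (log axis) of 15 genes that start in the long shared domains, in each of 9 WT and 9 R6/1 libraries, with lines at the means. App and Ndufa4 overlap between genotypes, Enpp2 spreads from 45.2 to 323 within R6/1, and Stxbp6, Ednrb, Wnt2 and Mybl1 do not overlap.

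Between the genotypes, the genes of the long domains changed about as often, and in as even a split, as genes in general. Of the 446 tested members 107 (24.0%) were higher in R6/1, 110 (24.7%) were lower and 229 were not called (limma on log2(RPKM + 0.5), Benjamini-Hochberg adjusted p under 0.05 over 14446 genes). Over all tested genes 24.8% were called higher and 23.5% lower. In 56 members (12.6%; 25 up and 31 down) the 9 WT and 9 R6/1 libraries did not overlap, against 11.9% of all genes. The median log2 fold change was 0.00 for the members and 0.00 for all tested genes. Changes were small, with 172 of the 217 calls under 0.5 on the log2 scale and 4 of 1 or more. Of the 189 expressed members 57 were higher and 52 lower, against 31.3% and 26.2% of the 6446 genes at that level, and 34 did not overlap (18 up and 16 down), where 16.9% of such genes did not. The members' shares are thus near the background. Only genes that reached 0.5 RPKM enter these counts.

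The split depends on the scaling of the libraries. When libraries were scaled by their total reads, 155 tested members were higher and 81 lower, and all tested genes moved alike, with 5113 higher and 2525 lower. The median then was 0.07 for the members and 0.07 for all genes. In the authors' deposited table, where 40.4% of genes had an adjusted p under 0.05, 212 of the 217 calls stood with the same sign. Hippocampal RNA is a mixture of cell types, and in such bulk samples fewer cells of a type and less RNA per cell cannot be told apart.

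Among genes averaging 1 RPKM or more, the changes with no overlap between the genotypes that were largest on the log2 scale included genes of secretion, ligands and receptors. Stxbp6 (chromosome 12, 45953475 to 46175480) encodes amisyn, which binds syntaxin in vesicle fusion; it measured 24.8, 32.2 and 38.4 RPKM in WT and 11.5, 12.8 and 14.4 in R6/1 (log2 fold change -1.22 ± 0.08, limma adjusted p = 2.43e-10). Its lowest WT library thus lay well above its highest R6/1 library. Ednrb (chromosome 14, 104213842 to 104243390) encodes the endothelin receptor type B. It measured 16.5, 18.9 and 24.1 RPKM in WT and 7.99, 9.41 and 14.2 in R6/1 (-0.98 ± 0.09, limma adjusted p = 6.02e-08). The Wnt pathway ligand Wnt2 (chromosome 6, 17938940 to 17980585) was low throughout. It measured 1.65, 2.26 and 2.85 RPKM in WT and 0.547, 0.820 and 1.18 in R6/1 (-1.02 ± 0.10, limma adjusted p = 7.01e-08). Rspo2, which enhances Wnt signalling, was lower too (6.90 ± 1.57 against 3.80 ± 0.534 RPKM, SD, n = 9 each; limma adjusted p = 8.35e-06). The G-protein-coupled receptor gene Gpr63 fell from 5.22 ± 0.578 to 2.79 ± 0.486 RPKM (limma adjusted p = 1.93e-07) and the junctophilin gene Jph1 from 11.1 ± 2.10 to 6.26 ± 0.595 RPKM (limma adjusted p = 7.06e-07).

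In the other direction, Mybl1 (chromosome 1, 9657496 to 9690290), a Myb family transcription factor, measured 0.552, 0.677 and 0.986 RPKM in WT and 1.27, 1.68 and 2.01 in R6/1 (log2 fold change 0.82 ± 0.08, limma adjusted p = 1.31e-07). Rit2, a neuronal Ras-like GTPase on chromosome 18, measured 31.8, 36.4 and 41.7 RPKM in WT and 48.4, 51.9 and 57.3 in R6/1 (0.50 ± 0.05, limma adjusted p = 2.73e-08). For both genes the lowest R6/1 library lay above the highest WT library. The same was true of the cadherin gene Cdh19 (2.77 ± 0.364 against 4.68 ± 0.549 RPKM, SD, n = 9 each), the Tie2 ligand gene Angpt1 (1.94 ± 0.351 against 3.12 ± 0.295), Prps1l3 (5.15 ± 0.314 against 7.77 ± 0.481) and the Hsp70 family gene Hspa13 (15.0 ± 1.55 against 20.9 ± 1.53), with limma adjusted p between 5.38e-09 and 8.34e-06.

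Outside the rule for named genes, and chosen after its values were seen, the transcription factor gene Pou4f1 had the largest positive log2 fold change of the members (1.64 ± 0.21, limma adjusted p = 2.10e-06). Its level was low, with 0, 0.0167 and 1.07 RPKM as the lowest, median and highest WT values and 0.804, 1.57 and 1.94 in R6/1, and the highest WT value lay inside the R6/1 range. In the brain the gene is known for its expression in the habenula. Of the 4 calls of 1 or more, the other below 1 RPKM was Olfm4, which encodes a secreted glycoprotein: it measured 0.690, 1.25 and 1.39 RPKM in WT and 0.0887, 0.381 and 0.606 in R6/1 (-1.05 ± 0.12, limma adjusted p = 8.33e-07), with no overlap.

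**Figure D5:**
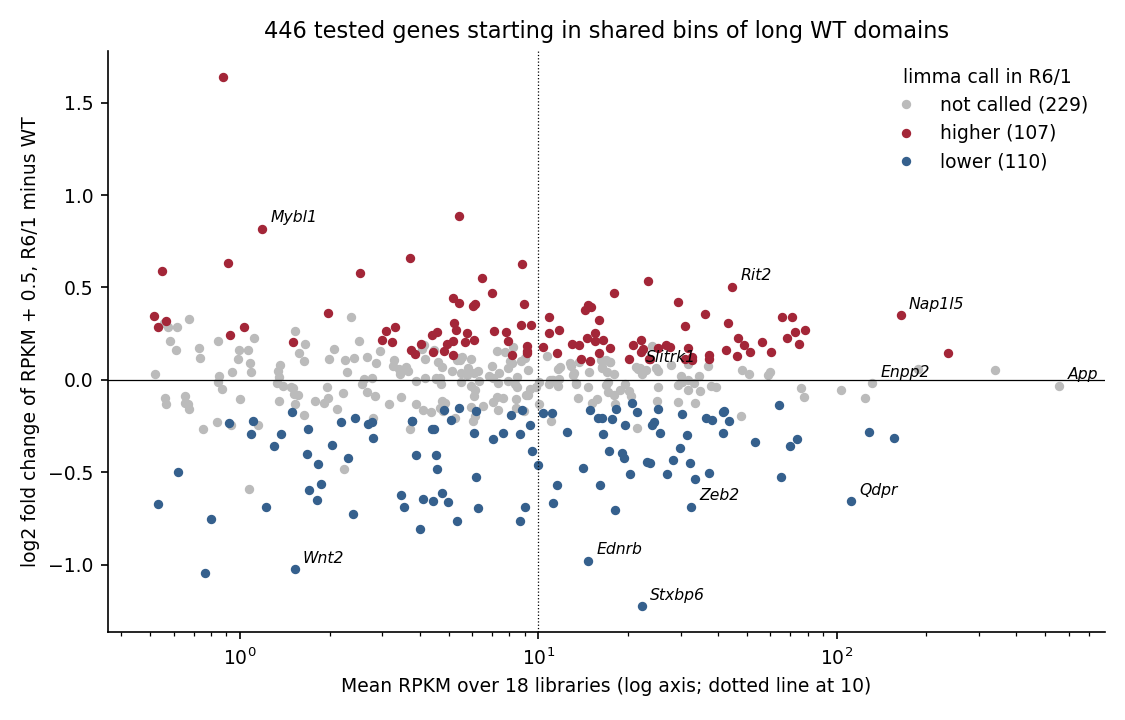
Log2 fold change (R6/1 minus WT, on RPKM + 0.5) against mean RPKM (log axis) for the 446 tested genes that start in the long shared domains, coloured by call; 107 are higher, 110 lower and 229 not called. Points lie on both sides of 0 at all levels, with Stxbp6 lowest at -1.22.

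Of the 19 adhesion genes tested, 1 was higher (Cdh19), 6 were lower and 12 were not called, where 24.8% of all tested genes were higher and 23.5% lower. They had a median log2 fold change of -0.12 beside 0.00 for all genes. The lists were drawn up with earlier results of these data known, and no test of the list was made. The lower members were Slitrk3, Pcdh20, Robo1, Lrrtm1, Cntnap5a and Cntnap5b. Slitrk3, which acts at inhibitory synapses, measured 24.3, 25.9 and 29.7 RPKM in WT and 20.5, 21.7 and 25.9 in R6/1 (-0.23 ± 0.05, limma adjusted p = 0.00107). Pcdh20 fell from 31.8 ± 5.63 to 22.1 ± 3.69 RPKM (SD, n = 9 each; limma adjusted p = 0.000343) and Robo1 from 10.8 ± 1.48 to 8.18 ± 1.32 (limma adjusted p = 0.00126). Lrrtm1, a synaptic organiser that lies within Ctnna2 on the opposite strand, fell from 37.2 ± 3.33 to 27.1 ± 2.27 RPKM with no overlap (limma adjusted p = 1.61e-06). Cntnap5a and Cntnap5b, on chromosome 1, fell by 0.64 and 0.72 on the log2 scale (limma adjusted p = 0.000187 and 0.000222).

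Within single families the members differed. Slitrk1 measured 21.1 ± 2.01 RPKM in WT and 22.0 ± 1.43 in R6/1, Slitrk5 20.6 ± 1.58 and 19.8 ± 0.795, and Slitrk6 0.451 ± 0.379 and 0.657 ± 0.354 (SD, n = 9 each), and none of these 3 passed the test, with limma adjusted p from 0.182 to 0.356. Pcdh9 (25.9 and 24.0 RPKM in WT and R6/1), Pcdh17 (13.2 and 14.1) and Pcdh7 (11.0 and 10.8) did not pass, nor did Robo2 (15.8 and 14.5), Slit2 (6.54 and 5.49), Cdh20 (6.29 and 5.64), Cdh7 (1.53 and 1.76), Lrrtm4 (9.50 and 8.33) or Csmd3 (3.98 and 4.35). When libraries were scaled by their total reads, Slitrk1 and Pcdh17 were called higher. Leaving out 1 library also changed calls: Slitrk6 was higher without WT replicate 6 (limma adjusted p = 0.0229), and Robo2 was lower without WT replicate 5 or R6/1 replicate 8 (limma adjusted p = 0.0214 and 0.0483).

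The potassium channel subunits in the table were all expressed. Of the 5 genes tested, 4 were lower, where 26.2% of all genes at 10 RPKM or more were lower. Kcnd2 (39.3 ± 5.34 against 33.8 ± 2.40 RPKM, SD, n = 9 each) is a pore subunit of the rapidly inactivating A-type channel. Kcnip4 (19.3 ± 2.82 against 12.8 ± 1.06) binds that channel's subunits. Kcnc2 (26.8 ± 3.34 against 19.5 ± 1.47) is a subunit of fast-spiking interneurons. Kcnv1 (13.9 ± 2.29 against 8.46 ± 0.622) is a silent modifier subunit. In that order the limma adjusted p of these 4 genes were 0.0117, 2.43e-06, 8.42e-06 and 1.20e-06, and all but Kcnd2 had no overlap. Kcnd2 did not pass once libraries were scaled by their total reads. Kcnj3, of the channel opened by G proteins, measured 40.0 ± 4.79 and 38.9 ± 2.95 RPKM (limma adjusted p = 0.665). The glutamate receptor subunit gene Grik1 was lower (3.05 against 2.51 RPKM, limma adjusted p = 0.0199).

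Markers listed for cell types of this tissue changed as well. Of the listed markers that were tested, 6 of 6 for dentate granule cells were lower in R6/1, 5 of 5 for CA1 and 4 of 5 for CA3 pyramidal neurons, 5 of 6 for inhibitory and 3 of 4 for excitatory neurons, 6 of 6 for astrocytes, 3 of 6 for microglia and 4 of 6 for oligodendrocytes. None of 5 endothelial and none of 6 choroid plexus markers was called, and 1 of 2 tested markers of olfactory epithelium was higher. Over all tested genes 23.5% were called lower and 24.8% higher. None of these markers was at 0 throughout. The summed level of dentate granule markers was 72.5 to 109 RPKM in WT and 42.4 to 53.3 in R6/1, that of CA1 markers 159 to 223 and 118 to 135, of inhibitory markers 351 to 428 and 212 to 278 and of astrocyte markers 840 to 1109 and 569 to 839. The part of these markers' cells in the lower levels of the adhesion and channel genes was not tested. The 1 marker that starts in the shared windows of the long domains is Calb1, the calcium buffer calbindin of dentate granule cells. It measured 34.8 ± 4.16 RPKM (SD, n = 9) in the WT and 28.1 ± 1.98 (n = 9) in the R6/1 libraries (limma adjusted p = 0.000810).

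Several further expressed genes were looked up after the values were seen, by function. Among forebrain transcription factors, Zeb2 measured 32.0, 41.4 and 46.4 RPKM in WT and 21.6, 25.0 and 28.8 in R6/1, with no overlap (log2 fold change -0.69 ± 0.07, limma adjusted p = 1.87e-07), while Mef2c (31.0 and 27.9 RPKM) did not pass (limma adjusted p = 0.611). Of the ESCRT-III membrane scission genes, Chmp3 rose from 38.6 ± 2.51 to 47.8 ± 1.51 RPKM (SD, n = 9 each) and Chmp2b, known from frontotemporal dementia, from 27.8 ± 1.63 to 34.1 ± 1.49 (limma adjusted p = 9.61e-07 and 1.94e-06), and the associated ATPase gene Vps4b did not pass (14.8 and 14.4 RPKM, limma adjusted p = 0.451). Tmem106b, a lysosomal protein gene linked to the same dementia, rose from 45.6 ± 3.83 to 52.0 ± 3.14 RPKM (limma adjusted p = 0.00238). The ephrin receptor genes Epha6 (23.9 ± 2.32 to 16.7 ± 2.14 RPKM) and Epha7 (22.7 ± 4.26 to 13.6 ± 1.60) fell with no overlap (limma adjusted p = 7.95e-06 and 2.43e-06).

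Mitochondrial genes went their own ways. The 4 respiratory chain and ATP synthase genes (Ndufa4, Ndufa5, Cox7c and Atp5j) were not called, with limma adjusted p from 0.0691 to 0.281. Immt, which shapes the inner membrane, and the mitochondrial ribosome genes Mrpl13 and Mrpl39 were higher, by 0.13, 0.18 and 0.27 on the log2 scale (limma adjusted p = 0.000628, 0.00358 and 7.62e-06). The import receptor gene Tomm70a (58.9 and 60.8 RPKM in WT and R6/1) and the citric acid cycle gene Suclg1 (58.6 and 59.6) did not pass (limma adjusted p = 0.433 and 0.627). The calcium-binding protein gene Necab1 measured 13.7, 16.6 and 32.0 RPKM in WT and 23.0, 27.2 and 31.6 in R6/1 (0.53 ± 0.12, limma adjusted p = 0.000981); the highest WT library exceeded all of the R6/1 libraries. The 2 expressed members not annotated as protein-coding were Kctd12, listed as a pseudogene in the annotation used, which fell from 43.8 ± 5.11 to 30.7 ± 2.55 RPKM (limma adjusted p = 2.03e-06), and Mir9-2, at 11.8 ± 3.23 and 10.3 ± 3.46 RPKM (limma adjusted p = 0.381). The reads at Mir9-2 come from messenger RNA libraries and do not measure the mature miRNA.

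In the 5 longest domains the highest genes were Ndfip2 (37.8 RPKM over all libraries), Nrcam (53.2), Ndufa4 (339), Qdpr (112) and Nap1l5 (164). Nrcam, a neuronal adhesion molecule of the axon, fell from 59.3 ± 3.78 to 47.0 ± 3.32 RPKM with no overlap (SD, n = 9 each; limma adjusted p = 5.29e-06), and Ndfip2, an adaptor of ubiquitin ligases, measured 38.3 ± 3.55 and 37.3 ± 2.46 (limma adjusted p = 0.610). Over all 17 domains the highest gene had a mean between 31.4 and 559 RPKM, and of these 17 genes 5 were higher in R6/1, 4 lower and 8 not called, which is near the 31.3% higher and 26.2% lower of all genes at 10 RPKM or more. At the limit that defined expressed genes, Cav2 (mean 10.0 RPKM) and Elmod3 (10.1) lay just inside and Jam2 (9.98) and Ppargc1a (9.85) just outside. Lmnb1 itself, which encodes lamin B1 and lies outside these domains, measured 2.62 ± 0.247 RPKM in WT and 2.84 ± 0.183 in R6/1 (limma adjusted p = 0.141).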

How the data were processed

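Values were read from the processed files of hippocampal RNA-seq (9 WT and 9 R6/1 libraries) and lamin B1 ChIP-seq (1 domain list per genotype). The authors deposited RPKM per gene, and a table of their comparison with the mean normalized signal of each gene, its log2 fold change, a test score and raw and adjusted p-values. TopHat, DESeq2, Bowtie and build mm9 (NCBIM37) are named without versions in the submitters' processing notes. The domain lists carry 1 score per domain, with lamin B1, input and the EDD caller named per the labels of the files; EDD's settings and the joining of replicates are not given in the sources used here.

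A window was inside a domain if it lay whole within it. A gene belonged to the window of its annotated start. Of 24508 symbols in the table, 20375 matched the GENCODE annotation by name and 1720 by a RefSeq synonym. Depth was recovered from the smallest steps of the RPKM values: between 99.84% and 99.89% of values under 1000 reads came out whole within 0.05 of a read. It limits precision for genes with few reads.

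limma 3.58.1 (R 4.3.3, trended, two-sided) was fitted to log2(RPKM + 0.5) over all genes averaging 0.5 RPKM or more, and checked on simulated data. A fold change is on that scale, which understates changes of low genes. Named genes were the 12 highest protein-coding members, the 6 largest increases and decreases without overlap averaging 1 RPKM or more, the highest gene of each of the 5 longest domains, the 2 genes on each side of 10 RPKM, up to 4 of each family list with 3 or more tested members, and Lmnb1. Other genes, those of shorter family lists included, were named after their values were seen. Some items covered by these rules are not reported here. Promoters were sought within 20 kb of a gene. Rpl7 has no promoter printed. The members, lists and rules were chosen with earlier results of these data known. ATAC-seq was not analysed here, and 0 columns of sample values were left unused.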

Additional observations from a re-analysis of the deposited data

Results flagged for a closer look

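In 94 groups of 9 libraries (47 named genes in 2 genotypes), the gap between the most extreme library and its neighbour was checked against the range; chance alone flags about 1 group in 20, or 4.7 here, and 6 were found. In WT replicate 6 the highest values of 3 genes stood apart: 34.2 RPKM for Kcnc2 (next 28.6), 11.7 for Elmod3 (next 10.3) and 1.39 for Slitrk6 (next 0.656), a gene with as few as 8 reads in a library. In WT replicate 1 Cox7c reached 153 RPKM (next 136). In R6/1, replicate 2 had 285 RPKM for Rpl7 (next 258) and replicate 4 had 24.3 RPKM for Hspa13 (next 21.7). Without WT replicate 6 Slitrk6 passed the test as higher in R6/1 (log2 fold change 0.44, limma adjusted p = 0.0229), and without R6/1 replicate 2 Cox7c passed as lower (-0.11, limma adjusted p = 0.0455).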

How the results depend on the processing

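For 47 named genes, 1203 of 1217 repeats under 26 other settings kept direction and side of the threshold, 12 newly passed, 1 no longer passed and 1 reversed. The reversal was App, at 0.15 under quantile normalization (limma adjusted p = 8.25e-05). Kcnd2 did not pass when libraries were scaled by their total reads (-0.13, limma adjusted p = 0.0764). Leaving out each library in turn gave 97 to 109 members higher, 99 to 112 lower and a median log2 fold change from -0.01 to 0.01. The median moved to 0.036 under quantile normalization and 0.068 with scaling by total reads. With WT domains of 20 Mb or longer, 61 genes were higher, 58 lower, 102 expressed, and gene starts numbered 5.30 per Mb; with 10 Mb or longer they numbered 6.26. A limit of 20 RPKM left 111 expressed genes. Protein-coding starts numbered 2.53 per Mb. Chosen after seeing the data: leaving out sensory receptors (63.5% tested, 5.42 gene starts per Mb), all WT-domain windows near borders (0.564 expressed genes per Mb), and each domain in turn (164 to 185 expressed genes). These counts change because fewer or more windows or genes enter.

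Replicate numbers did not pair the samples: same-numbered libraries correlated between -0.05 and 0.24 in their deviations, and 2 of 9 WT libraries correlated best with their own number. With a replicate block, 104 members were higher and 116 lower, with a median of 0.00, and Robo2 (-0.12) and Slit2 (-0.22) passed as lower (limma adjusted p = 0.0204 and 0.0237); no other named gene changed its call under the block. With 1 domain list per genotype, no replicate error of domain bounds can be given.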
